A study of Homo sapiens with 18 samples.

Results

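The 5 genes described here are ARHGDIB, PLAC8, CYTIP, CDCA7L and YBX3, out of 18417 genes measured on arrays in human lymphoma cell lines. They were picked by symbol because their signal in the Burkitt lymphoma lines Raji and Namalwa exceeded that in the Hodgkin lymphoma line L428 by some of the largest amounts in the data. Each is represented by a probe set that names 1 gene, the brightest on average where a gene has several. The difference between the Burkitt lines and L428 therefore chose the genes, and it is given as a description without a test. The working label calls them signalling genes silent in L428. Signal in L428 was low for 4 of them, but YBX3 lay near the middle of the signal distribution there, and neither CDCA7L nor YBX3 is chiefly known as a signalling protein, so the genes are called the Burkitt-high genes below.

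Total RNA was hybridised to 18 Affymetrix arrays, 3 for each of 6 groups. Raji and Namalwa received no treatment. L428-PAX5+MAT and L428-PAX5+M are L428-PAX5, an L428 derivative that makes the B-lineage transcription factor PAX5 when mifepristone is given. L428+MAT and L428+M are the parent line. All 4 L428 groups had mifepristone at 0.25 nM with a treatment time of 5 days, so the control L428+M carried it too, whereas Raji and Namalwa did not. In both MAT groups, mifepristone for 2 days was followed by 5-aza-2'-deoxycytidine, an inhibitor of DNA methylation, at 3 µM for another 3 days, and by trichostatin A, an inhibitor of histone deacetylases, at 640 nM over the last 24 h. Medium for L428-PAX5 also held 25 mM HEPES. Neither L428-PAX5 without mifepristone nor a control derivative of L428 is among the groups. PAX5, this buffer and other differences of the L428-PAX5 line therefore cannot be told apart. Below, PAX5 alone or PAX5 without drugs names the comparison of L428-PAX5+M with L428+M. Drugs alone or drugs without PAX5 names that of L428+MAT with L428+M. This label does not say that PAX5 was absent from the parent line, whose PAX5 signal is given below. The L428-PAX5+MAT arrays are titled L425-PAX5, but are given as L428-PAX5 under cell line, and the second was used. Whether the replicates were separate cultures is not stated, nor whether L428-PAX5 is 1 clone, and p-values measure the spread between these arrays, which may be technical.

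The Hodgkin cell is a B cell that has lost most B-cell gene expression, while Burkitt lymphoma cells keep it. The proteins studied here differ in function, and what is known of them does not all come from B cells. ARHGDIB is a GDP dissociation inhibitor of blood cells. CYTIP is a scaffold that binds cytohesins, exchange factors of ARF GTPases, and regulates adhesion through the integrin LFA-1. PLAC8 is a small cysteine-rich protein of blood and placental cells. CDCA7L is a nuclear protein that binds MYC and is known to repress the gene of monoamine oxidase A, MAOA. YBX3 is a cold-shock domain protein that binds DNA and RNA and is held at tight junctions by TJP1.

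Because 1 of the drugs inhibits DNA methylation, which marks CG dinucleotides, the stretch of 250 bases before the annotated start is shown for 4 of the genes. CDCA7L, YBX3 and ARHGDIB were called higher in at least 1 comparison with drugs, and CYTIP did not pass the test with drugs. PLAC8, called lower with drugs in L428-PAX5, is given below by its CG counts. Sequences are from RefSeq (GRCh38.p14), read 5′ to 3′ on the gene's strand, with every CG in capitals. All 5 genes matched the promoter table, with 8 windows between them. The windows lie at chr7:21945900-21946149 for CDCA7L, chr12:10723324-10723573 for YBX3, chr12:14948897-14949146 for ARHGDIB, the start nearest its 3′ end among 3 annotated, and chr2:157444090-157444339 for CYTIP, each on the minus strand.
CDCA7L: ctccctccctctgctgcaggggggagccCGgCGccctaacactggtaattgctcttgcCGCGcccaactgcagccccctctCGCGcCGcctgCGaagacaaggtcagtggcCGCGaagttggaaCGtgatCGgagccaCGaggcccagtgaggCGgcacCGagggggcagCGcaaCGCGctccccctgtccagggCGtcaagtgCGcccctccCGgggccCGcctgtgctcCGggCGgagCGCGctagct
YBX3: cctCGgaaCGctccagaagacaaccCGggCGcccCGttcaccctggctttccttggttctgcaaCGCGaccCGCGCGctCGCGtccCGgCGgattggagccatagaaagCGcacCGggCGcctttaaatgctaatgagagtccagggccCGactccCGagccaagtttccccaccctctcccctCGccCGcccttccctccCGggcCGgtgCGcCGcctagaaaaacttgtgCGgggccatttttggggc
ARHGDIB: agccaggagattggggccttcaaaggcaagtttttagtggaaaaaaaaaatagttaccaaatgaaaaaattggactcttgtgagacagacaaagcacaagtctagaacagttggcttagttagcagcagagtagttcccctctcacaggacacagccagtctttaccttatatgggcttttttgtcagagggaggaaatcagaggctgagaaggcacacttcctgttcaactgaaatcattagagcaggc
CYTIP: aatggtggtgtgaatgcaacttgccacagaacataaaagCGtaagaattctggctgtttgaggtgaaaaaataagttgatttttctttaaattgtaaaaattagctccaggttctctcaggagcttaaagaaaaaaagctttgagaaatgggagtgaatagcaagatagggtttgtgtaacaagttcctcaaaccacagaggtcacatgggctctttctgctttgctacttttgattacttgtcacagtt

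CDCA7L and YBX3 had 26 CG each in this window, CYTIP had 1 and the ARHGDIB window shown had 0, against a median of 11 over 35116 windows of the same length. The other 2 ARHGDIB windows held 3 and 2 CG. PLAC8 has 2 annotated starts, with 30 CG in the window at chr4:83109890-83110139 and 4 in that at chr4:83114730-83114979, both on the minus strand. The genes thus split into CG-rich windows (CDCA7L, YBX3 and 1 of PLAC8) and CG-poor ones (ARHGDIB, CYTIP and the other of PLAC8). Methylation was not measured on these arrays, and which start was used is not known. Short motifs were searched on both strands. The PU.1 motif GAGGAA was found in the ARHGDIB window shown, in the CG-rich PLAC8 window and in CYTIP, against 23.6% of all windows. The E2A motif CAGGTG (17.5% of all windows) and an NF-kB motif, GGGA and CC with any 4 bases between (22.6%), were found in the other ARHGDIB windows, which overlap each other, and in no other window of the 5 genes. The octamer ATGCAAAT (1.63%) and the MYC motif CACGTG (6.34%) were in none of the 8 windows. A match here is a run of letters and not a measured site.

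PAX5 was checked first. Its log2 signal in L428-PAX5+MAT was 12.84, 12.85 and 12.67. The L428-PAX5+M arrays read 12.70, 12.81 and 12.68. For L428+MAT the values were 7.08, 7.14 and 7.28, against 8.64, 7.14 and 6.7 in L428+M, where replicate 1 stood above the other 2. PAX5 was higher by 5.23 ± 0.30 log2 units (SE, n = 3 each) in L428-PAX5+M over L428+M (limma, adjusted p = 1.3e-09), and it averaged 3.49 ± 0.26 above L428+M in Raji and Namalwa. The arrays of a group correlated at 0.9628 to 0.9961 over genes and no 2 arrays were identical. Of 6 B-cell markers measured, 6 lay above the array median in Raji, 5 in Namalwa, with MS4A1 (CD20) the exception there, and 0 in each of the 4 L428 groups. Of 7 Hodgkin markers, 7 were above it in both L428-PAX5 groups, 6 in both L428 groups and 3 in each Burkitt line. Their summed log2 signal was 65.7 to 67.2 in L428-PAX5+MAT, 71.1 to 73.0 in L428-PAX5+M, 69.8 to 72.6 in L428+MAT and 68.5 to 72.3 in L428+M. In L428-PAX5+MAT, 4 of the 7 were called lower and 1 higher against L428-PAX5+M (limma, adjusted p below 0.05, median -1.23). Of all genes, 19.4% were called lower and 14.2% higher there. The counts were likewise 4 and 1 against L428+M (median -1.05), beside 19.6% lower and 17.9% higher over all genes. Against L428+M, MSC was at -2.31 ± 0.24 log2 units, TNFRSF8 (CD30) at -1.90 ± 0.21, IL13RA1 at -1.66 ± 0.21 and CSF1R at 3.39 ± 0.18 (SE; limma, adjusted p = 4.28e-07, 8.29e-07, 3.79e-06 and 1.24e-10). The T-cell and myeloid markers, 5 each, were above it in no group. Summed log2 signal of 5 fibroblast and epithelial markers was 31.7 to 32.3 in L428-PAX5+MAT, 29.5 to 30.4 in L428-PAX5+M, 30.0 to 31.3 in L428+MAT and 29.7 to 30.8 in L428+M, with 2 of the 5 above the median in each group. The part of these marker shifts in the results below was not tested.

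**Figure D1:**
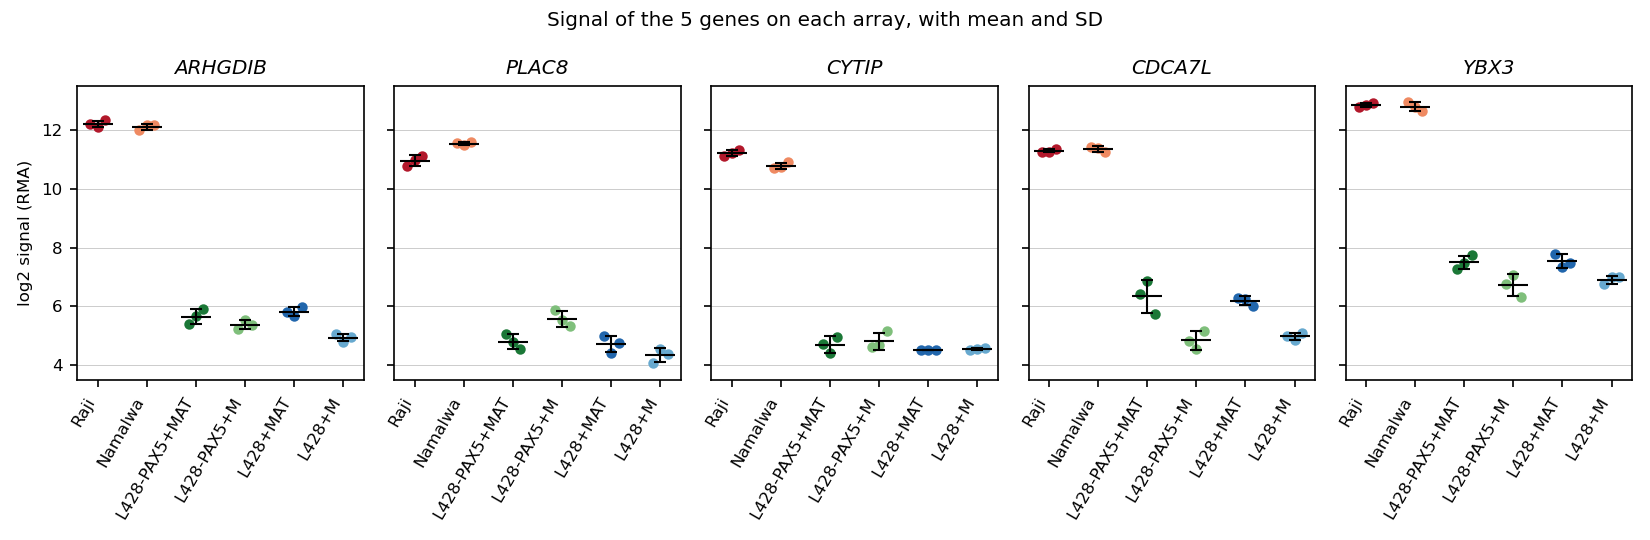
Log2 signal (RMA) of each Burkitt-high gene on every array (points), with the group mean and SD (n = 3). Raji and Namalwa sit at 10.72 or higher for all 5 genes, and no array of the 4 L428 groups exceeds 7.79.

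ARHGDIB, the GDP dissociation inhibitor, had the widest difference of the 5 genes. Its log2 signal was 12.20, 12.10 and 12.33 in Raji and 11.99, 12.16 and 12.18 in Namalwa, against 5.05, 4.80 and 4.96 in L428+M. The mean of the Burkitt lines stood 7.22 ± 0.13 log2 units above L428+M, 149-fold, second only to JCHAIN (7.28), the joining chain of polymeric immunoglobulin. Within L428+M it ranked between percentile 12.5 and 16.0 of an array's genes, and within Raji between 98.8 and 99.2. Such percentiles describe a probe set on its array, since probe sets differ in brightness, and in RNA pooled from a culture fewer cells expressing a gene and less RNA per cell cannot be told apart. The L428 groups differed among themselves far less than from the Burkitt lines. They read 5.39, 5.66 and 5.91 in L428-PAX5+MAT and 5.23, 5.55 and 5.36 in L428-PAX5+M. The L428+MAT arrays gave 5.82, 5.66 and 5.97. Both groups given drugs, and L428-PAX5+M, lay above every L428+M array.

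PLAC8, the cysteine-rich protein, had the largest change of the 5 genes with PAX5 alone. It read 10.78, 10.98 and 11.13 in Raji and 11.55, 11.48 and 11.58 in Namalwa, against 4.07, 4.54 and 4.39 in L428+M. The Burkitt mean was 6.92 ± 0.16 log2 units higher than L428+M, 121-fold, and PLAC8 lay between percentile 4.3 and 9.4 in L428+M. Signal was 5.06, 4.79 and 4.54 in L428-PAX5+MAT and 5.87, 5.53 and 5.32 in L428-PAX5+M. The L428+MAT arrays gave 4.99, 4.43 and 4.76. L428-PAX5+M was the highest of the L428 groups, with no overlap with the next, L428-PAX5+MAT, which itself overlapped L428+MAT.

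CYTIP, the cytohesin scaffold, had group means between 4.52 and 4.82 in the 4 L428 groups. It read 11.12, 11.22 and 11.31 in Raji and 10.72, 10.73 and 10.91 in Namalwa, against 4.53, 4.54 and 4.58 in L428+M. That is a difference of 6.45 ± 0.13 log2 units, 87.5-fold, with CYTIP between percentile 8.1 and 9.5 in L428+M. Signal was 4.72, 4.40 and 4.97 in L428-PAX5+MAT and 4.63, 4.68 and 5.15 in L428-PAX5+M. The L428+MAT arrays gave 4.52, 4.53 and 4.52. Neighbouring L428 groups in the order of their means overlapped throughout. The spread was narrow in both parent-line groups (SD 0.01 in L428+MAT and 0.03 in L428+M) and wider in both L428-PAX5 groups (SD 0.28 with drugs and 0.29 without).

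CDCA7L, the MYC-binding nuclear protein, was the gene of the set most raised by drugs. Its signal was 11.26, 11.27 and 11.36 in Raji and 11.43, 11.38 and 11.25 in Namalwa, against 4.99, 4.87 and 5.08 in L428+M. The Burkitt mean was 6.34 ± 0.18 log2 units above L428+M, 81.3-fold, and CDCA7L lay between percentile 13.3 and 15.2 in L428+M. It read 6.42, 6.87 and 5.74 in L428-PAX5+MAT and 6.30, 6.26 and 6.03 in L428+MAT, against 4.83, 4.54 and 5.18 in L428-PAX5+M. The drug-treated groups overlapped each other and lay above every array of both groups without drugs. Replicate 3 of L428-PAX5+MAT was the lowest of the drug-treated arrays.

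YBX3, the cold-shock domain protein, was the brightest of the 5 genes in L428 relative to its own array, at percentile 43.4 to 47.3 in L428+M. It read 12.78, 12.85 and 12.93 in Raji and 12.97, 12.77 and 12.66 in Namalwa, against 6.75, 6.99 and 6.99 in L428+M. The Burkitt mean was 5.92 ± 0.15 log2 units higher, 60.4-fold. Signal was 7.27, 7.48 and 7.74 in L428-PAX5+MAT and 6.78, 7.06 and 6.32 in L428-PAX5+M. The L428+MAT arrays gave 7.79, 7.33 and 7.49. Both drug-treated groups exceeded both groups without drugs on every array.

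In the order of rises, the 5 genes held ranks 2, 3, 4, 6 and 11. The places between them were taken by CD180 (6.35), STAP1 (6.12), MFNG (6.06), CD38 (6.02) and CD79A (5.98), a receptor component of B cells. YBX3 at 5.92 was the last member, and SLAMF6 and CD22 just beyond it each stood at 5.91. All 5 genes pass a limma test of this contrast, as do 35.4% of all genes, 18.7% higher and 16.7% lower in the Burkitt lines, but nothing is read from it because it chose the genes.

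The relatives of these genes were named for their family and are given with their own tests. They are not set against the members, whose difference was the ground for choosing them. ARHGDIA, a widely expressed relative of ARHGDIB, averaged 11.18 ± 0.17 in Raji and 10.64 ± 0.18 in Namalwa against 10.85 ± 0.44 in L428+M (SD, n = 3 each), a Burkitt difference of 0.06 ± 0.22 log2 units (SE; limma, adjusted p = 0.89). ARHGDIG differed by 0.15 ± 0.17 (adjusted p = 0.58). CDCA7, the closest relative of CDCA7L, averaged 10.34 ± 0.07 in Raji arrays and 10.10 ± 0.11 in Namalwa arrays, against 10.00 ± 0.15 in L428+M, a difference of 0.22 ± 0.18 (adjusted p = 0.431). TAMALIN, which like CYTIP binds cytohesins, differed by 0.18 ± 0.12 (adjusted p = 0.306), PLAC8L1 by -0.03 ± 0.17 (adjusted p = 0.939) and CNFN, another protein of the PLAC8 family, by -0.14 ± 0.27 (adjusted p = 0.77). Among cold-shock proteins, YBX1 was higher in the Burkitt lines by 0.46 ± 0.09 (limma, adjusted p = 0.000412) and YBX2 by 0.48 ± 0.16 (adjusted p = 0.0229). LIN28B, a cold-shock protein that binds RNA, was higher by 2.82 ± 0.18 (adjusted p = 2.13e-10), but from 1 line: it averaged 3.76 ± 0.13 in Raji and 8.94 ± 0.56 in Namalwa, against 3.53 ± 0.06 in L428+M (SD, n = 3 each). CARHSP1 differed by -0.26 ± 0.18 (adjusted p = 0.345) and LIN28A by 0.07 ± 0.15 (adjusted p = 0.8).

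Raji and Namalwa were compared with each other to see where the Burkitt lines differ, since the choice of genes used their mean. PLAC8 was lower in Raji than in Namalwa, at -0.57 ± 0.18 log2 units (limma, adjusted p = 0.0311), and every Raji array lay below every Namalwa array. PLAC8 was the 1 gene of 5 called, against 19.2% of all genes (7.74% higher and 11.5% lower in Raji). Its call was lost without any 1 of Namalwa replicates 1, 2 or 3 (adjusted p 0.0831, 0.0609 and 0.0884) or Raji replicates 1 or 2 (0.138 and 0.0734), and with array medians subtracted (0.0795). CYTIP was higher in Raji by 0.43 ± 0.15 (adjusted p = 0.0546), again with no overlap of arrays, and it passed with the replicate number as a block (adjusted p = 0.0149). For ARHGDIB the difference was 0.10 (95% interval -0.20 to 0.41), for CDCA7L -0.06 (-0.50 to 0.38) and for YBX3 0.05 (-0.32 to 0.43), each Raji minus Namalwa.

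PAX5 without drugs compares L428-PAX5+M with L428+M, which differ in PAX5 and also in cell line and medium. PLAC8 rose by 1.24 ± 0.18 log2 units in L428-PAX5+M over L428+M (limma, adjusted p = 7.77e-05), 2.36-fold, on all 3 arrays. ARHGDIB rose by 0.44 ± 0.15 (adjusted p = 0.0437), 1.36-fold. CYTIP differed by 0.27 (95% interval -0.05 to 0.59, adjusted p = 0.28), CDCA7L by -0.13 (-0.57 to 0.31, adjusted p = 0.779) and YBX3 by -0.19 (-0.57 to 0.18, adjusted p = 0.571). So 2 of the 5 genes were called, both higher, against 16.3% of all genes, 9.72% higher and 6.55% lower. Their median change was 0.27 and that of all genes -0.03. ARHGDIB's call is marginal: it was lost in 11 of 18 fits that each left out 1 array. These included each L428+M array (adjusted p 0.0524, 0.167 and 0.0794 for replicates 1, 2 and 3) and L428-PAX5+M replicates 2 (0.188) and 3 (0.086). The other 6, without 1 of the Namalwa arrays, Raji replicates 1 or 2 or L428+MAT replicate 1, gave 0.0511 to 0.0566. The arrays of L428+M also served to choose the genes, and that holds for each comparison with L428+M below.

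Drugs without PAX5 raised CDCA7L and ARHGDIB. CDCA7L was higher by 1.22 ± 0.21 log2 units in L428+MAT than in L428+M (limma, adjusted p = 0.00111), 2.32-fold, and ARHGDIB by 0.88 ± 0.15 (adjusted p = 0.000753), 1.84-fold. YBX3 was 0.62 ± 0.18 higher with an adjusted p of 0.0505, just short of the threshold, and it passed with the replicate number as a block (adjusted p = 0.0327), as well as without L428-PAX5+M replicate 2 (0.0358) or 3 (0.0245) or L428-PAX5+MAT replicate 3 (0.036). PLAC8 differed by 0.40 (95% interval 0.02 to 0.78, adjusted p = 0.308) and CYTIP by -0.03 (-0.35 to 0.29, adjusted p = 0.966). The 2 genes called, both higher, compare with 4.84% of all genes (4.21% higher and 0.635% lower). With the replicate block 3 of the 5 were called, against 8.64% of all genes. The median change of the 5 was 0.62, against -0.04 over all genes.

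Drugs given on top of PAX5 can be read from L428-PAX5+MAT against L428-PAX5+M, arrays that played no part in choosing the genes. CDCA7L rose by 1.49 ± 0.21 log2 units (limma, adjusted p = 2.69e-05), 2.81-fold, and YBX3 by 0.78 ± 0.18 (adjusted p = 0.00213), 1.72-fold. PLAC8 fell by 0.78 on the log2 scale, with SE 0.18 (adjusted p = 0.00263), and every array with drugs lay below every one without. ARHGDIB differed by 0.27 (95% interval -0.03 to 0.58, adjusted p = 0.174) and CYTIP by -0.13 (-0.44 to 0.19, adjusted p = 0.597). The 3 genes called, 2 higher and 1 lower, stand against 33.7% of all genes, 14.2% higher and 19.4% lower.

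**Figure D2:**
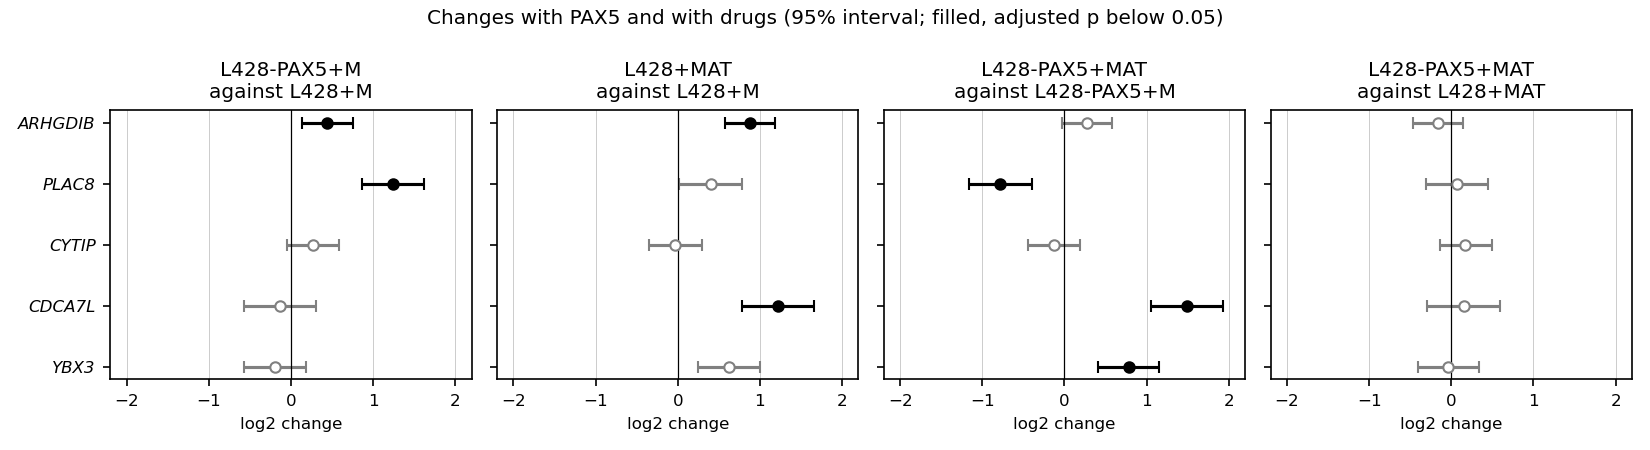
Log2 change of each gene in the 4 comparisons of PAX5 and drugs, with 95% intervals from limma (n = 3 arrays a group); filled points have an adjusted p below 0.05. CDCA7L rose in both drug comparisons (1.22 and 1.49), while PLAC8 rose with PAX5 without drugs (1.24) and fell with drugs in L428-PAX5 (-0.78).

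PAX5 in the presence of drugs, L428-PAX5+MAT against L428+MAT, moved none of the 5 genes past the threshold, also in arrays not used to choose them. The changes were -0.16 for ARHGDIB (95% interval -0.47 to 0.14), 0.07 for PLAC8 (-0.31 to 0.45), 0.17 for CYTIP (-0.14 to 0.49), 0.15 for CDCA7L (-0.29 to 0.59) and -0.04 for YBX3 (-0.41 to 0.34). The limma count was 0 of 5, also 0 at an unadjusted p under 0.05, against 32.0% of all genes called (14.3% higher and 17.7% lower). With array weights, limma called 3, namely PLAC8 at 0.54 (adjusted p = 8.74e-05), ARHGDIB at -0.30 (0.00246) and CYTIP at 0.19 (0.02). With these weights 60.7% of all genes were called. For replicates 1, 2 and 3 the weights were 15.244, 0.292 and 0.25 in L428-PAX5+MAT. In L428+MAT they were 0.543, 4.952 and 0.439. That fit thus rests largely on 1 array of each group, and nothing is read from its 3 calls.

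The difference between the drug effects in L428-PAX5 and in L428 was tested as an interaction. The L428+M arrays, which also served to choose the genes, enter this test, and a low signal there makes the value more negative. The interaction was -1.17 ± 0.26 log2 units for PLAC8 (limma, adjusted p = 0.0045), whose change with drugs was -0.78 in L428-PAX5 and 0.40 in L428. For ARHGDIB it was -0.61 ± 0.21 (adjusted p = 0.0512), with drug changes of 0.27 in L428-PAX5 and 0.88 in L428, and with the replicate block it passed (adjusted p = 0.0208). CDCA7L, YBX3 and CYTIP gave 0.27 (95% interval -0.35 to 0.90), 0.16 (-0.37 to 0.68) and -0.10 (-0.55 to 0.35). The 1 gene called, lower, stands against 16.2% of all genes, 5.64% higher and 10.6% lower. With the replicate block 2 of the 5 were called, against 25.7% of all genes. Quantile normalization moved the split over all genes to 1409 higher and 1483 lower, against 1039 and 1951.

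PAX5 and drugs together, L428-PAX5+MAT against L428+M, raised CDCA7L by 1.36 ± 0.21 log2 units (limma, adjusted p = 4.21e-05), ARHGDIB by 0.72 ± 0.15 (adjusted p = 0.000645) and YBX3 by 0.59 ± 0.18 (adjusted p = 0.0134). PLAC8 was 0.46 ± 0.18 higher (adjusted p = 0.0529; 0.0402 with the replicate block), and without L428+M replicate 2 (0.0393), L428-PAX5+MAT replicate 3 (0.0222), L428-PAX5+M replicates 1 or 3 (0.0444 and 0.0468) or L428+MAT replicates 1 or 2 (0.046 and 0.0452) it passed. CYTIP differed by 0.15 (95% interval -0.17 to 0.47, adjusted p = 0.493). The 3 genes called compare with 37.5% of all genes, 17.9% higher and 19.6% lower. YBX3 was no longer called without L428+M replicate 1 (adjusted p = 0.0614) or L428-PAX5+MAT replicate 3 (0.0657).

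The share of the gap closed expresses each group's distance from L428+M as a percent of the distance between L428+M and the mean of Raji and Namalwa, on the log2 scale. With PAX5 and drugs it was 21.5% ± 3.31 for CDCA7L, 9.92% ± 3.0 for YBX3, 9.91% ± 2.02 for ARHGDIB, 6.69% ± 2.62 for PLAC8 and 2.28% ± 2.35 for CYTIP (SE of the change, with the gap taken as fixed). These shares are small: on the linear signal scale they are 1.96%, 0.845%, 0.433%, 0.309% and 0.123% of the Burkitt signal's excess. PAX5 without drugs closed 17.9% for PLAC8, 6.15% for ARHGDIB and 4.22% for CYTIP, with -2.01% for CDCA7L and -3.25% for YBX3. Drugs without PAX5 closed 19.2% for CDCA7L, 12.2% for ARHGDIB, 10.5% for YBX3 and 5.73% for PLAC8, with -0.427% for CYTIP. After PAX5 and drugs, the Burkitt mean still exceeded L428-PAX5+MAT by 6.51 log2 units for ARHGDIB (90.9-fold), 6.46 for PLAC8 (87.8-fold), 6.30 for CYTIP (79.1-fold), 5.33 for YBX3 (40.2-fold) and 4.98 for CDCA7L (31.6-fold).

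**Figure D3:**
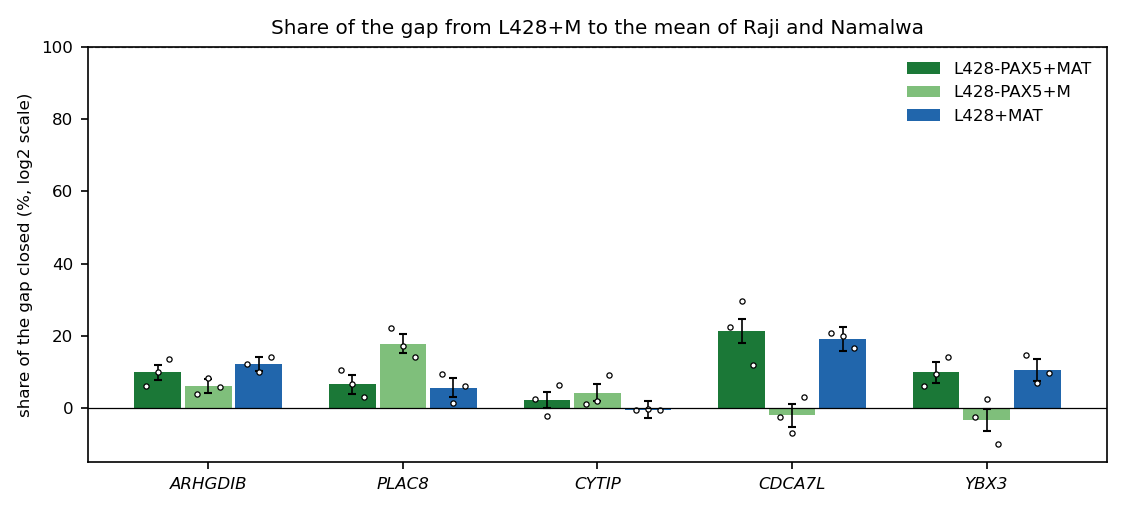
Share of the gap between L428+M and the Burkitt mean closed in each group, in percent on the log2 scale; bars are group means with the SE of the change, and points are single arrays (n = 3). The highest bar is CDCA7L in L428-PAX5+MAT at 21.5%.

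The replicates spread these shares. CDCA7L in L428-PAX5+MAT ran at 22.6%, 29.8% and 12.1% on its 3 arrays, and PLAC8 in L428-PAX5+M at 22.2%, 17.3% and 14.2%. CYTIP in L428-PAX5+MAT ran at 2.67%, -2.28% and 6.45%, on both sides of 0. Over the 781 genes at least 2-fold higher in both Burkitt lines with a passing test in each, the median share was 10.1% in L428-PAX5+MAT (quartiles -10.4% and 42.2%), 6.51% in L428-PAX5+M (quartiles -6.07% and 33.2%). It was 4.47% in L428+MAT (quartiles -3.82% and 15.7%). The median of the 5 genes was 9.91% in L428-PAX5+MAT, 4.22% in L428-PAX5+M and 10.5% in L428+MAT. In L428-PAX5+MAT, a larger share than CDCA7L's was seen in 39.7% of the 781 genes, YBX3's in 50.2%, ARHGDIB's in 50.3%, PLAC8's in 54.0% and CYTIP's in 59.8%. For L428-PAX5+M these were 37.0% for PLAC8, 50.4% for ARHGDIB, 53.3% for CYTIP, 67.6% for CDCA7L and 70.2% for YBX3. For L428+MAT they were 20.2% for CDCA7L, 30.9% for ARHGDIB, 35.1% for YBX3, 47.0% for PLAC8 and 64.8% for CYTIP. The 5 genes were chosen for wide gaps, 5.92 to 7.22 log2 units, whereas the 781 needed only a 2-fold gap. The same log2 change is a smaller share of a wider gap. The place of the 5 among the 781 thus depends in part on how they were chosen, and nothing is read from it.

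**Figure D4:**
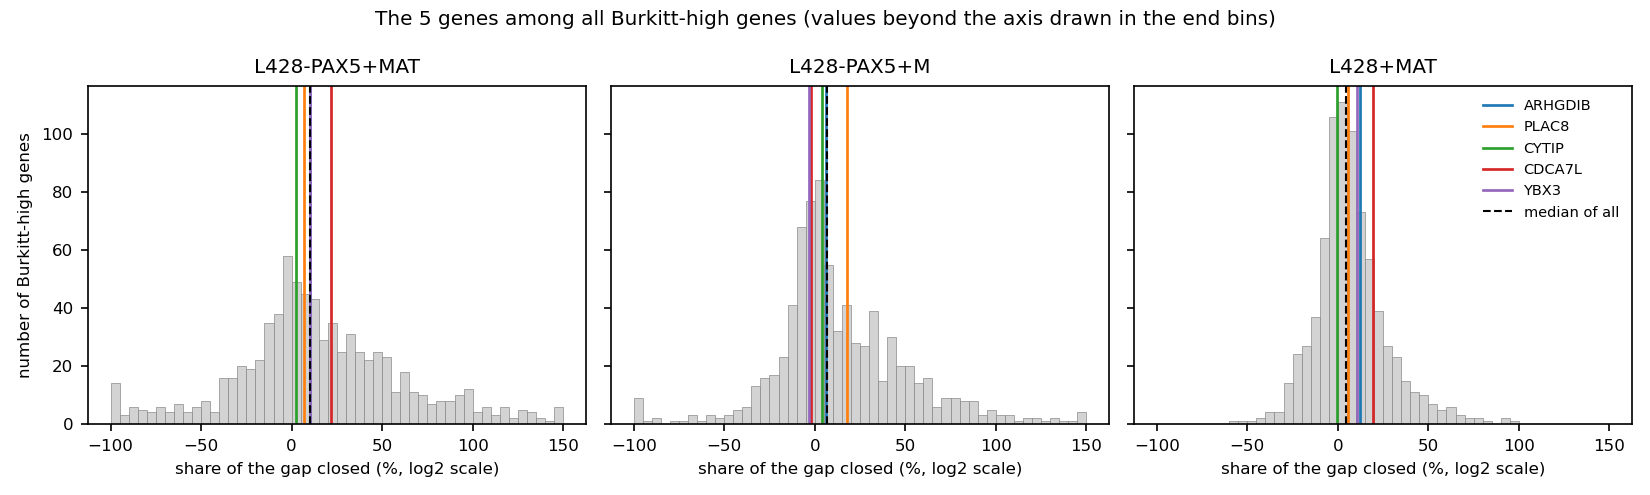
Distribution of the share of the gap closed over 781 Burkitt-high genes (grey bars, 5-percent bins, log2 scale), with the 5 genes as coloured lines and the median as a dashed line. The 5 genes lie between -3.25% and 21.5%, within the body of each distribution. They were chosen for wide gaps, which make the share of a given log2 change small.

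The genes most like each member over the 18 arrays were ranked by Pearson's r, a description that rests mainly on the gap between the 6 Burkitt and 12 L428 arrays. ARHGDIB was followed by CCDC69 (0.9963), YBX3 (0.9954) and CYTIP (0.9938). PLAC8 was followed by FAM78A (0.9894), HCLS1 and MFNG (both 0.9886). CYTIP was nearest to CD180 (0.9972), a toll-like receptor homologue of B cells, then CCDC69 (0.9964) and CD79A (0.9955). CDCA7L was nearest to H1-5 (0.9892), a linker histone that may share signal with its relatives, then YBX3 (0.9869) and JAZF1 (0.9851). YBX3 was followed by ARHGDIB, CCDC69 (0.9944) and H1-5 (0.9927).

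The cytohesins, ARFs and LFA-1 genes, 22 measured, include the partners of CYTIP. CYTH3, a cytohesin, rose by 0.72 ± 0.13 log2 units with PAX5 alone (limma, adjusted p = 0.000519), by 0.50 ± 0.13 with drugs alone (adjusted p = 0.0254) and by 1.81 ± 0.13 with both (adjusted p = 4.38e-09), each over L428+M, and it was 1.88 ± 0.11 higher in the Burkitt lines. ITGAL, the alpha chain of LFA-1, fell by 1.34 with PAX5 alone (adjusted p = 8.28e-06) and by 1.92 with both (adjusted p = 3.49e-08), and APBB1IP, an adaptor that activates integrins through RAP1, fell by 1.92 and 2.04 (adjusted p = 2.6e-07 and 3.73e-08). APBB1IP was 3.12 ± 0.15 higher in the Burkitt lines than in L428+M. Of the 22, PAX5 and drugs together raised 2 and lowered 11, against 17.9% of all genes higher and 19.6% lower, with a median of -0.46 against -0.06. Among the 9208 genes kept by a filter on low values, 1857 were called higher and 3019 lower, with a median of -0.15. How far brightness enters the count for the 22 was not tested. PAX5 alone raised 2 and lowered 3 (16.3% of all genes called), and drugs alone raised 1 and lowered 0 (4.84% called).

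MYC partners and the CDCA7 family, 15 measured, hold MAOA, which CDCA7L is known to repress. MAOA was lower in the Burkitt lines than in L428+M, at -2.79 ± 0.14 log2 units (limma, adjusted p = 3.84e-12). It rose with PAX5 alone, by 1.08 ± 0.16 (adjusted p = 7.82e-05), and fell by 1.22 with drugs in L428-PAX5 (adjusted p = 1.18e-05). Against L428+M it differed by -0.20 ± 0.16 with drugs alone (adjusted p = 0.616), where CDCA7L rose by 1.22, and by -0.14 ± 0.16 with both (adjusted p = 0.55), where CDCA7L rose by 1.36. Whether CDCA7L acts on MAOA in these cells was not tested. MAOB changed by 1.64 ± 0.20 with PAX5 alone and by -1.81 ± 0.20 with drugs in L428-PAX5 (adjusted p = 9.24e-06 and 1.77e-06). CDCA7 averaged 8.99 ± 0.58 in L428-PAX5+MAT and 10.33 ± 0.27 in L428-PAX5+M (SD, n = 3 each), a fall by 1.33 on the log2 scale (adjusted p = 9.27e-05), where CDCA7L rose by 1.49. MXD1, an antagonist of MYC at MAX, rose by 1.84 ± 0.21 with PAX5 alone and by 2.49 ± 0.21 with both. In all, PAX5 alone raised 4 and lowered 0 of the 15, drugs alone gave 0 limma calls (4 at an unadjusted p under 0.05) and both together raised 2 and lowered 3. The shares of all genes called at an adjusted p below 0.05 were 16.3% with PAX5 alone, 4.84% with drugs alone and 37.5% with both. They are no measure for the 4 at an unadjusted p.

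Cold-shock proteins and YBX3 partners, 13 measured of 16, included TJP1, the tight-junction protein that binds YBX3. TJP1 rose by 1.26 ± 0.19 log2 units with PAX5 alone (limma, adjusted p = 0.00011), by 1.07 ± 0.19 with drugs alone (adjusted p = 0.00154) and by 0.86 ± 0.19 with both (adjusted p = 0.00147), but was lower in the Burkitt lines than in L428+M (-3.12 ± 0.17). CDK4 was lower with both (-0.93 ± 0.16, adjusted p = 0.000163). PAX5 alone raised 2 and lowered 0 of the 13, drugs alone raised 1 and lowered 0, and both raised 4 and lowered 3, against 16.3%, 4.84% and 37.5% of all genes called. PLAC8's own list of 6 genes had 2 higher and 1 lower with both (37.5% of all genes called), CNFN at 1.38 ± 0.31 (adjusted p = 0.00154), PLAC8L1 at 0.95 ± 0.20 (adjusted p = 0.000675) and AKT1 at -0.71 ± 0.19 (adjusted p = 0.00556). PLSCR1, a phospholipid scramblase, rose by 1.55 ± 0.15 with drugs alone (adjusted p = 1.37e-06) and fell by 0.50 with PAX5 alone (adjusted p = 0.0258).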

How the data were processed

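Biotin-labelled RNA was measured on Affymetrix arrays, 3 for each of 6 groups taken from the labels. The deposited values are log2 signal per probe set; RMA and Partek were used per the submitters' processing notes, with versions, order of steps and array build not given in the sources used here. Of 33297 probe sets, 19460 carry 1 gene symbol in the platform annotation, 1754 carry several and 12083 are unnamed here. Keeping the brightest on average of each gene left 18417 genes. No detection calls were used, and background correction compresses dim signals, so changes of dim genes may be understated. The number of arrays limits precision.

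Changes were fitted with limma 3.58.1 in R 4.3.3 (lmFit and eBayes, all 18 arrays, with a mean for each group; residual degrees of freedom were 12 and prior ones 6.1), two-sided, with Benjamini-Hochberg adjustment over 18417 genes and a call at an adjusted p below 0.05. The fit was also run on simulated data with independent noise on each array. Real arrays of the same number deviated together, as given below, so error control under that pattern was not tested. Tables and plots used Python 3.11.15, pandas 2.3.3, numpy 2.4.6 and matplotlib 3.10.9.

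The genes, lists and tests were chosen with earlier results of these data known. Named genes are the members, PAX5, the 10 largest rises and the genes next in rank to members, the 3 most correlated genes per member, up to 3 called genes per direction, list and comparison, fixed relatives and marker genes. Results of some list genes are not reported here. Replicate numbers come from the titles. Same-numbered arrays deviated together, with correlations of 0.27 to 0.65 among the 4 L428 groups and 0.33 to 0.54 between Raji and Namalwa, so values with the number as a block stand beside results they change. Alternatives were that block, only the groups compared, array medians subtracted, quantile normalization, an intensity trend, array weights, a filter on low values, the mean of a gene's probe sets, each array left out and a linear scale for the gap.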

Additional observations from a re-analysis of the deposited data

Results flagged for a closer look

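PLAC8 was the 1 gene of 5 called for a drug effect that differs between the cell lines, against 16.2% of all genes (10.6% lower). Its change with drugs was -0.78 log2 units in L428-PAX5 and 0.40 in L428, a difference of -1.17 ± 0.26 (SE; limma interaction, adjusted p = 0.0045 over 18417 genes). Over 7 alternatives the difference ranged between -1.29 and -0.74 with adjusted p of 0.0023 to 0.0181, and with each array left out in turn between -1.32 and -1.02 with adjusted p of 0.00322 to 0.0157. All these fits used L428+M arrays, which also served to choose the genes, and a low signal there makes the difference more negative. L428-PAX5+M held the highest PLAC8 signal of the 4 L428 groups, but PLAC8 was dim in all 4. It lay at percentile 18.5 to 29.2 of an array's genes in L428-PAX5+M and 7.5 to 14.7 in L428-PAX5+MAT. In L428+MAT it lay at 8.5 to 15.5 and in L428+M at 4.3 to 9.4.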

How the results depend on the processing

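Counts of the 5 genes called were compared with the fit described above. With PAX5 alone the count of 2 fell to 1 with only the groups compared, with array medians subtracted, with an intensity trend and with the filter on low values, and was 1 to 2 with each array left out. For PAX5 in the presence of drugs the count of 0 became 3 with array weights, a fit that called 60.7% of all genes. The interaction count of 1 became 2 with the replicate block, quantile normalization and array weights, and 1 to 2 with each array left out. Between Raji and Namalwa the count of 1 became 2 with the replicate block, only the groups compared, quantile normalization and array weights, and 0 with the filter, and was 0 to 2 with each array left out; with array medians subtracted it stayed at 1 but CYTIP (adjusted p = 0.0354) took the place of PLAC8. The filter, at the median gene, drops PLAC8 and CYTIP, so it tests fewer genes. The median share of the gap closed by PAX5 and drugs, 9.91% on the log2 scale, was 0.433% on the linear scale and 8.13% to 11.7% with each array left out. Leaving out each array gave 2 to 3 calls for drugs alone, 3 for drugs with PAX5 and 2 to 4 for both together. The replicate block changed no call of the 5 genes other than those given in the report. Of single-gene values, 241 kept direction and side of the threshold under the alternatives, 17 gained and 4 lost a call and 4 uncalled values changed sign; with arrays left out these were 584, 15, 18 and 13. No called change reversed. The cause was not tested for these shifts, other than the filter. Over all genes, 892 were called with drugs alone, against 1592 with the block, 2551 with array weights, 593 with only the groups compared and 336 with the filter. The interaction's 2990 became 4730 with the block and 5965 with array weights, which also gave 9532 calls for drugs with PAX5 (6204), 11176 for PAX5 with drugs (5898) and 5747 for Raji against Namalwa (3545). The weights ran from 0.25 to 15.244, both in L428-PAX5+MAT, so counts with array weights lean on few arrays. Subtracting array medians moved the median Raji minus Namalwa difference of all genes to 0.144, against 0.041, and the split to 1958 higher and 1707 lower, against 1426 and 2119; PLAC8 then stood at -0.47.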
